A study of Mus musculus with 2 samples.

Results

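The expression of 9 mouse genes was described in 2 regions of the tongue. They were 7 small leucine-rich proteoglycans (SLRPs), namely decorin (*Dcn*), lumican (*Lum*), biglycan (*Bgn*), fibromodulin (*Fmod*), osteoglycin (*Ogn*), *Prelp* and asporin (*Aspn*), together with the receptor gene *Pdgfra* and the fibrillin gene *Fbn1*, both widely used as marks of fibroblasts. The genes were found by symbol, and all 9 had a row among the 18498 rows of the deposited table, of which 18043 carry a symbol. The set was picked from the measured values themselves, because *Dcn* differed in one direction and *Pdgfra* and *Fbn1* in the other, so the opposite directions are a description of the choice and not a finding. RNA came from the circumvallate papillae (CvP), the taste papillae at the back of the tongue, or from tongue epithelium without papillae (Epi). All mice were male C57BL/6J, 12-30 weeks old and on a normal chow diet, with no genotype or treatment set apart. RNA of at least 20 mice was pooled for each tissue and sequenced as 1 library, so there was no replicate, no p-value was computed, and every difference is one between these 2 libraries. The values are RPKM, read counts scaled to exon length and to the mapped reads of the library, and the lowest of them gave depths of about 28375327 mapped reads for CvP and 27909754 for Epi. Each ratio has a 95% exact interval from estimated reads, and intervals and floors cover counting error only.

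SLRPs are secreted proteins with a core of leucine-rich repeats, and most carry chondroitin, dermatan or keratan sulfate chains. They bind collagen fibrils and set their thickness and spacing, and several also bind growth factors such as TGF-β and their receptors. Decorin, biglycan and asporin form class I, lumican, fibromodulin and PRELP belong to class II, and osteoglycin belongs to class III. In connective tissue the main source of decorin is the fibroblast. The receptor PDGFRα marks many fibroblasts, and fibrillin-1 builds the microfibrils on which elastic fibres form. The tongue's lamina propria, which lies under the epithelium, is rich in such cells.

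The promoters of *Pdgfra* and *Fbn1* are shown because these are the 2 genes that were higher in CvP. Each runs from 250 bases before to 50 bases after the RefSeq start, on build GRCm38.p6, read 5′ to 3′ on the gene's strand, with CG dinucleotides in capitals. *Pdgfra* is at chr5:75152001-75152300 on the plus strand, and *Fbn1* is at chr2:125506389-125506688 on the minus strand.
Pdgfra: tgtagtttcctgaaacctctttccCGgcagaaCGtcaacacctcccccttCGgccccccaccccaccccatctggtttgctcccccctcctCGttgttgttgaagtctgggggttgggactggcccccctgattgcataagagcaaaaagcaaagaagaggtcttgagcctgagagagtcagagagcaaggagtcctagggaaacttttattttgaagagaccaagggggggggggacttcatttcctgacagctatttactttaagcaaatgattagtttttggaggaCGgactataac
Fbn1: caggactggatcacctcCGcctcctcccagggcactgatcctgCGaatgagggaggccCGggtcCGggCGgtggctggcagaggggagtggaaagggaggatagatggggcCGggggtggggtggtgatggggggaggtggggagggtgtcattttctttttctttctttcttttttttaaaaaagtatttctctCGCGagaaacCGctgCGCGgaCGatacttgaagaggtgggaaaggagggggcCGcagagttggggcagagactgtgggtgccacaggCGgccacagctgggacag
The *Pdgfra* window held 5 CG dinucleotides and had a GC content of 51.0%, and the *Fbn1* window held 14 and had 60.3%. Over all 32851 RefSeq promoters of that length the medians were 7.0 and 52.7%. Promoters were found for 7 of the 9 genes, *Dcn* and *Lum* having no entry. The letters TATAAA, searched on both strands, were in 2 of the 7, those of *Ogn* and *Aspn*, and in 13.6% of all promoters, and they were in neither window shown. A match describes letters only.

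Decorin was by far the most abundant of the 9 transcripts in both libraries and was higher in Epi. *Dcn* (gene ID 13179, mm9 chromosome 10, 96942134 to 96980796, plus strand) had an RPKM of 26.1 in CvP and 128 in Epi, from about 1300 and 6262 reads. The Epi level was 4.90-fold that of the CvP (interval 4.61 to 5.20), a log2 CvP/Epi ratio of -2.29. It ranked 2185 in CvP and 357 in Epi among all rows. In bulk tissue, fewer cells of a type and less RNA per cell cannot be told apart, and this holds for each value given here.

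The 2 other class I genes were under 1 RPKM in both libraries, and *Aspn* rested on a few reads. Biglycan (*Bgn*, ID 12111, chromosome X, 70728974 to 70741275, plus strand) had 0.58 RPKM in CvP and 0.62 in Epi. Its CvP/Epi ratio of 0.935 (0.588 to 1.49) held 1, so a difference could not be detected at this depth, and it became 1.13 when both libraries were rescaled to the same sum. Asporin (*Aspn*, ID 66695, chromosome 13, 49639812 to 49662931, plus strand) had 0.02 and 0.07 RPKM, from about 1 and 5 reads. Its ratio of 0.286 (0.00416 to 1.76) also held 1. The level of *Dcn* was thus far above that of both relatives, while for *Aspn* the interval is too wide to set its ratio apart from that of *Dcn*.

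The class II genes were low in both libraries and each was higher in Epi. *Prelp* (ID 116847, chromosome 1, 135806882 to 135817978, minus strand), whose protein links basement membranes to the tissue beneath, had 0.51 RPKM in CvP and 0.96 in Epi. The ratio was 0.531 (0.373 to 0.754), that is 1.88-fold more in Epi. Its exons share 350 bases with the antisense gene Gm15851, and no source says that strand was used in counting, so the pair cannot be told apart by its reads. Fibromodulin (*Fmod*, ID 14264, chromosome 1, 135934092 to 135944854, plus strand) had 0.01 and 0.09 RPKM, about 1 and 8 reads, a ratio of 0.111 (0.00277 to 0.917). Lumican (*Lum*, ID 17022, chromosome 10, 97028135 to 97035337, plus strand), a main partner of corneal and dermal collagen, was at 0 in CvP and 0.19 in Epi. With about 11 Epi reads against a floor of 3 reads in CvP, it was at least 3.73-fold higher in Epi. That bound takes the Epi value as it stands, and with counting error the Epi level was 0.0948 to 0.340 RPKM and the CvP level up to 0.0627. The class III gene osteoglycin (*Ogn*, ID 18295, chromosome 13, 49703440 to 49719869, plus strand) was likewise at 0 in CvP and at 0.13 RPKM in Epi, about 9 reads and at least 3.05-fold higher there by the same floor, with an Epi level of 0.0581 to 0.241 RPKM and a CvP level of up to 0.0512.

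The fibroblast receptor and the microfibril gene lay on the other side, at levels far under that of *Dcn*. *Pdgfra* (ID 18595, chromosome 5, 75548316 to 75594229, plus strand) had 1.30 RPKM in CvP and 0.07 in Epi, about 242 and 13 reads. The ratio was 18.6 (10.5 to 34.9). *Fbn1* (ID 14118, chromosome 2, 125126330 to 125332174, minus strand) had 0.96 RPKM in CvP and 0.01 in Epi, about 270 and 3 reads, a ratio of 96.0 (30.0 to 432). The Epi value of *Fbn1* is 1 unit in the second decimal, which rounding lets stand for 1.38 to 4.14 reads, so the size of that ratio is poorly fixed. The exons of *Fbn1* share 2442 bases with the antisense gene Gm9913, again with strand not stated.

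**Figure D1:**
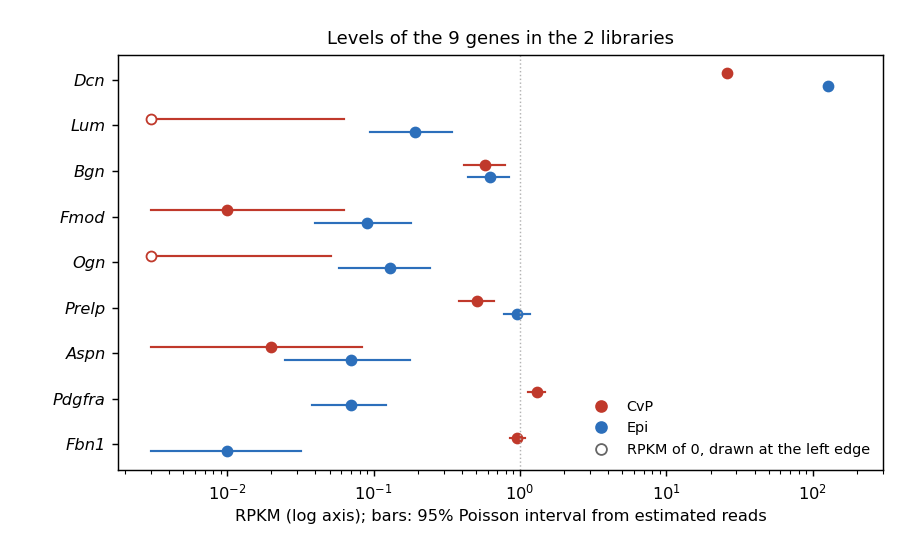
Points give the RPKM (log axis) of each of the 9 genes in CvP (red) and the Epi (blue), 1 pooled library each, and bars give the 95% Poisson interval of the level, cut at the left edge of the drawing. *Dcn* stands at 26.1 and 128, *Pdgfra* and *Fbn1* are the 2 genes whose red point lies to the right, and open points of *Lum* and *Ogn* are at 0 in CvP.

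Within CvP the order by RPKM was *Dcn*, *Pdgfra*, *Fbn1*, *Bgn*, *Prelp*, *Aspn*, *Fmod* and, at 0, *Lum* and *Ogn*. *Dcn* was 20.1-fold above *Pdgfra*, and the intervals of *Bgn* and *Prelp* overlapped, as did those of each neighbouring pair among the last 4 genes. Within Epi the order was *Dcn*, *Prelp*, *Bgn*, *Lum*, *Ogn*, *Fmod*, *Aspn*, *Pdgfra* and *Fbn1*. Here *Dcn* was 133-fold above *Prelp*. The intervals of *Prelp* and *Bgn* overlapped, those of neighbours from *Lum* to *Pdgfra* overlapped, and *Fbn1* lay below *Pdgfra* without overlap. The RPKM of *Dcn* was 23.3-fold the summed RPKM of the other 6 SLRPs of the set in CvP and 62.0-fold in Epi.

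Of the 9 genes, 7 were higher in Epi and 2 in CvP. Over all 18498 rows, 3909 were higher in Epi and 13880 in CvP. The intervals of *Bgn* and *Aspn*, both counted on the Epi side, held 1. Under 1 RPKM in both libraries were 7 of the 9 genes, against 32.2% of all rows. Only *Dcn* and *Pdgfra* reached 1 RPKM in a library. Of these, 1 had a CvP/Epi ratio above 2, as did 28.2% of the 12549 rows past that minimum, and 1 had a ratio below 0.5, as did 3.75%. The thresholds named in the study's text, a CvP RPKM above 10 and a ratio above 3, were applied here to every deposited row and were met by 0 of the 9 genes and by 2.35% of all rows. The opposite criteria were met by *Dcn* and by 0.600% of all rows, and *Dcn* was in place 46 of those 111 by Epi RPKM. Just outside the 2-fold limit was *Prelp* at 0.531, which is also under the minimum. Because the genes were chosen on this contrast, nothing is read from these counts.

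The table as a whole was tilted to the CvP, with 78.1% of rows past the minimum higher there. The median ratio of the 10363 rows with at least 1 RPKM in both libraries was 1.31, a log2 shift of 0.39. Relative to that shift the ratio was 0.156 for *Dcn*, 14.1 for *Pdgfra* and 73.1 for *Fbn1*. After division by the median, 2370 rows were above 2-fold and 871 below 0.5-fold, in place of 3545 and 471, so that 73.1% rather than 88.3% of such rows were on the CvP side. With both libraries rescaled to a common sum that share was 93.5%. The tilt also varied with level, which was looked at after the values were seen. Among 1396 rows whose geometric mean of the 2 RPKM values was within 2-fold of that of *Dcn* the median ratio was 1.01, and 10 rows (0.716%) had a lower ratio than *Dcn*. Among 1968 rows of the level of *Pdgfra* the median was 2.77 and 13.4% had a higher ratio, and among 1446 rows of the level of *Fbn1* the median was 2.85 and 2.42% had a higher ratio. Rows at 0 in either library were left out of these comparisons. *Dcn*, *Pdgfra* and *Fbn1* were chosen for their ratios, so the shares describe them and are not a test.

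**Figure D2:**
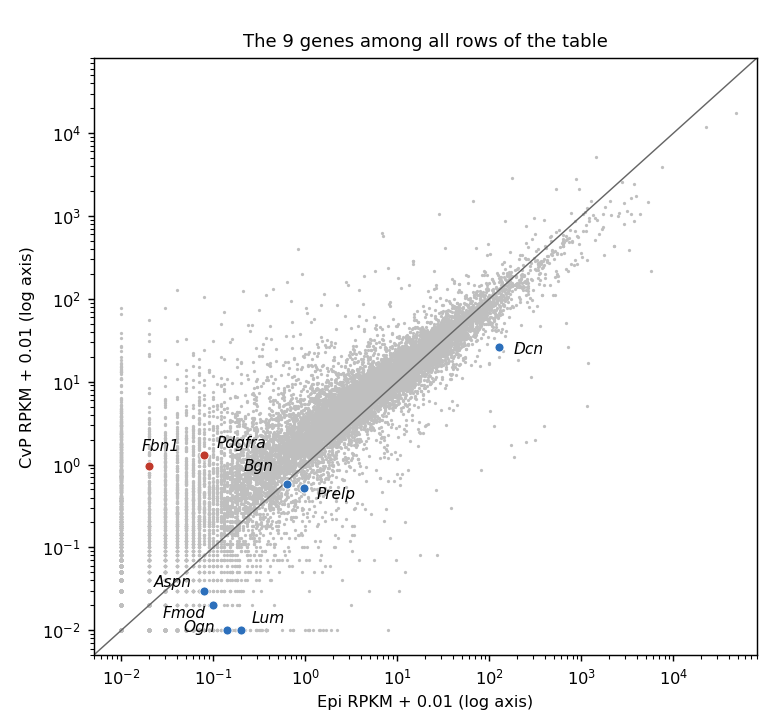
Each grey point is a row of the table, with its Epi RPKM (x) and CvP RPKM (y) plus 0.01 on log axes, and the line marks equal levels. *Dcn* lies below the line at a high level, where rows are close to it, while *Pdgfra* and *Fbn1* lie above it at the low end of the Epi axis, where rows spread widely and Epi values fall on steps of 0.01.

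Near to *Dcn* on the log2(RPKM + 0.1) scale over the 2 libraries were *2310050C09Rik* (23.1 and 141.71 RPKM, distance 0.23) and *Serpinb3b* (19.6 and 126.02, distance 0.41), and 5 genes lay within 0.5 of it. *Serpinb3b* encodes a protein of the serine protease inhibitor family. Nearest to *Pdgfra* were *Podxl* (1.35 and 0.07), *Ms4a7* (1.24 and 0.07) and *Cd53* (1.37 and 0.07), with 111 genes within 0.5. *Podxl* encodes a cell surface sialomucin, and *Cd53* a tetraspanin of leukocytes. Nearest to *Fbn1* were *Kank4* (0.97 and 0.01), *Muc20* (1.01 and 0.01) and *Dennd3* (0.91 and 0.01), with 210 genes within 0.5. These distances rest on 2 values a gene and say only that the levels were alike.

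A further 10 SLRP genes were looked up, and 9 had a row, all but *Epyc*. Tsukushi (*Tsku*), a secreted inhibitor of BMP signalling, had 34.9 RPKM in CvP and 26.1 in Epi, a ratio of 1.34 (1.26 to 1.42) that became 1.02 after division by the median ratio. Chondroadherin (*Chad*), an SLRP of cartilage, had 2.63 and 0.06 RPKM, about 125 and 3 reads, a ratio of 43.8 (13.7 to 201). *Podn* had 0.09 and 0.01 RPKM, 8 reads and 1 read, a ratio of 9.0 (1.05 to 349). Nyctalopin (*Nyx*), a protein of the retina, had 0.17 and 0.40 RPKM with a ratio of 0.425 (0.222 to 0.754), and *Ecm2* had 0.04 and 0.13 with a ratio of 0.308 (0.0719 to 0.980). *Kera*, *Omd*, *Optc* and *Podnl1* had 3 reads or fewer in both libraries and are given no ratio.

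Over the 16 SLRP genes with a row, summed RPKM was 65.1 in CvP and 157 in Epi. *Dcn* made up 40.1% of that sum in CvP and 81.5% in Epi, and *Tsku* 53.7% and 16.7%. Without both genes the other 14 summed to 4.07 and 2.78. SLRP transcript was thus nearly all *Dcn* and *Tsku* in each library, and the higher Epi sum came from *Dcn*.

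Several SLRP genes lie side by side in the genome, and position was not used to choose them. On chromosome 10, *Dcn*, *Lum* and *Kera* lie within 134 kb, with 47.3 kb between *Dcn* and *Lum*. The 3 genes held about 1300 reads in CvP and 6276 in Epi, and *Lum* and *Kera* gave 11 and 3 of the Epi reads. On chromosome 13, *Ecm2*, *Aspn*, *Omd* and *Ogn* lie within 120 kb and held 5 and 28 reads. On chromosome 1, *Optc*, *Prelp* and *Fmod* lie within 151 kb and held 54 and 105 reads. The level of *Dcn* was therefore not shared by its neighbours on the chromosome. *Cenpp*, a centromere gene on the opposite strand, overlaps the *Aspn* and *Ogn* stretch and had 1.17 and 0.95 RPKM. No transcribed region without a gene lay within 50 kb of any of the 9 genes.

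**Figure D3:**
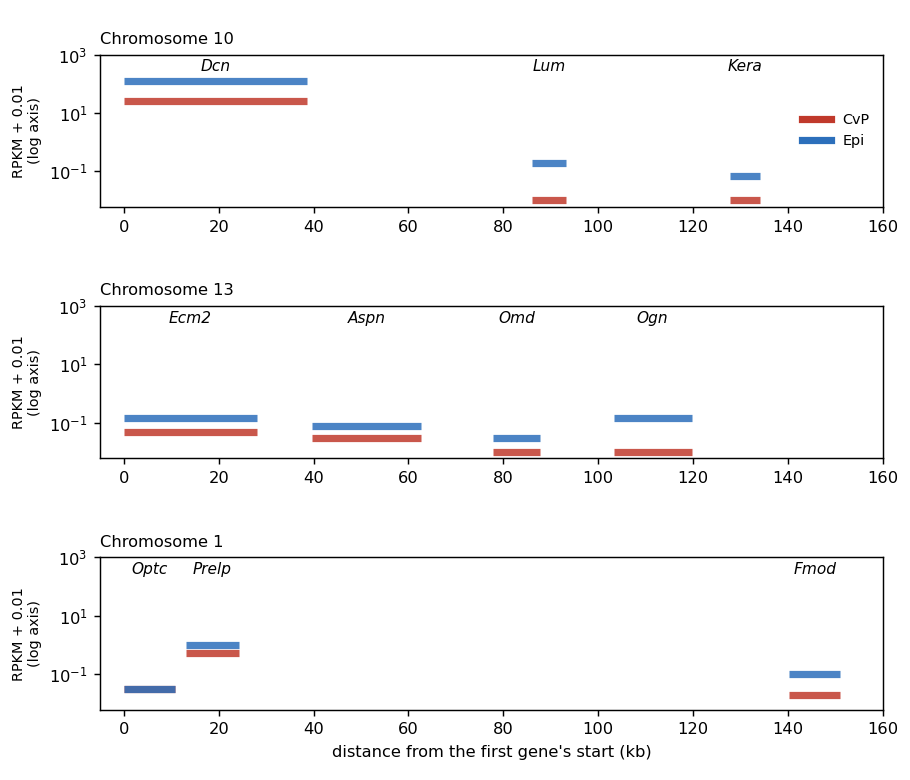
Bars span each SLRP gene by its distance (kb) from the first gene's start in 3 genomic clusters, at the height of its RPKM plus 0.01 (log axis) in CvP (red) and the Epi (blue). *Dcn* stands above 10 in both libraries, while every other gene drawn is under 1, and the bars of *Optc* coincide.

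The collagens that SLRPs bind were low in both libraries. Of 10 fibrillar and associated collagen genes 9 had a row, and 0 reached 1 RPKM in either library. The highest values were 0.29 RPKM in CvP, for *Col14a1*, and 0.25 in Epi, for *Col3a1*. Of the 9, 5 were higher in Epi, 3 in CvP and 1 was equal. Over all 18498 rows, 3909 were higher in Epi and 13880 in CvP. *Col14a1* had 0.29 and 0.02 RPKM (ratio 14.5, 4.80 to 49.6), *Col12a1* had 0.28 and 0.01 (28, 9.89 to 147) and *Col3a1* had 0.05 and 0.25 (0.200, 0.0814 to 0.438). Type I collagen, the main collagen of fibroblasts and named here after its values were seen, had 0.06 and 0.18 RPKM for *Col1a1* and 0.04 and 0.17 for *Col1a2*. *Dcn* was 27.4-fold the sum of these 9 collagens in CvP and 124-fold in Epi.

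The microfibril and elastic fibre genes around *Fbn1* differed in both directions. Of 19, 13 were higher in CvP and 6 in Epi, while over all 18498 rows 13880 were higher in CvP and 3909 in Epi. The minimum of 1 RPKM was passed by 8. Of these 8, 5 (62.5%) were above 2-fold and 1 (12.5%) below 0.5-fold, against 28.2% and 3.75% of all rows past the minimum, and the median log2 ratio, taken with 0.1 added to each value, was 1.63 against 0.50 over all rows past the minimum. *Ltbp4*, which tethers latent TGF-β to microfibrils, had 35.0 and 9.97 RPKM (ratio 3.51, 3.31 to 3.72). *Efemp1*, also called fibulin-3, had 32.2 and 7.0 (4.60, 4.13 to 5.14), and fibulin-2 (*Fbln2*) had 18.6 and 0.74 (25.1, 20.5 to 30.9). Elastin (*Eln*), the core of the elastic fibre, went the other way with 0.08 and 3.19 RPKM, about 6 and 230 reads (0.0251, 0.00932 to 0.0567). *Ltbp1*, a further latent TGF-β binding protein and named after its value was seen, had 3.88 and 7.53 (0.515, 0.470 to 0.563). After division by the median ratio 5 were above 2-fold and 2, *Eln* and *Ltbp1*, below 0.5-fold. The shares of all rows past the minimum were then 18.9% and 6.94%.

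Ligands of the PDGF receptors were compared next. Of 6 genes of ligands and receptors beside *Pdgfra*, 5 were higher in CvP and 1 in Epi, in a table where 78.1% of rows past the minimum were higher in CvP. The minimum was passed by 3, of which 2 were above 2-fold, against 28.2% of all rows past it. Of the 3, 0 were below 0.5-fold, and the median log2 ratio was 2.11. *Pdgfa*, whose product binds PDGFRα, had 11.8 and 2.65 RPKM (ratio 4.44, 3.73 to 5.34), and *Pdgfc* had 1.68 and 0.27 (6.22, 4.16 to 9.95). *Pdgfb* had 4.60 and 3.29 (1.40, 1.19 to 1.64), which became 1.07 relative to the median ratio. The second receptor *Pdgfrb*, a mark of pericytes, had 0.01 and 0.04 RPKM (0.25, 0.0324 to 1.83).

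Genes that make, cut or receive SLRPs were compared as groups. Of 21 chondroitin and dermatan sulfate synthesis genes with a row, 17 passed the minimum. Of these 17, 8 (47.1%) were above 2-fold, against 28.2% of all rows past the minimum, and 0 below 0.5-fold. Their median log2 ratio was 0.84. *Fam20b*, a xylose kinase, had 26.0 and 24.6 RPKM (ratio 1.05). *B3gat3*, which completes the linker, had 12.8 and 4.81 (2.65), and the sulfotransferase gene *Chst15* had 10.5 and 12.1 (0.867). Of 8 keratan sulfate genes 4 passed and all 4 were above 2-fold, among them *B3gnt2* (2.41), *B4galt1* (2.28) and *B4galt4* (4.27), and the median log2 ratio was 1.58. After division by the median ratio 5 of the 17 and 2 of the 4 were above 2-fold, against 18.9% of all rows past the minimum.

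Among 18 proteases and inhibitors that act on SLRPs, 11 passed the minimum, 9 (81.8%) were above 2-fold and 0 below 0.5-fold, with a median log2 ratio of 1.58. Over all rows past the minimum 28.2% were above 2-fold. Once ratios were divided by the median ratio, 8 of the 11 were above, against 18.9% of all rows past the minimum. The serine protease gene *Htra1* had 32.3 and 5.04 RPKM (ratio 6.41), the matrix metalloproteinase genes *Mmp2* 29.4 and 17.7 (1.66) and *Mmp14* 28.5 and 9.47 (3.01). Of 17 receptors and growth factors that bind SLRPs 15 passed, 6 (40.0%) were above 2-fold and 0 below, before and after that division, with a median of 0.82. *Ctgf*, a matricellular growth factor, had 33.9 and 0.36 RPKM (94.3, 63.6 to 148). *Egfr*, a receptor that decorin binds, had 13.3 and 14.7 (0.901, 0.862 to 0.941), and *Tgfbr2* had 14.2 and 8.01 (1.77). Of 15 large proteoglycan and link protein genes with a row 6 passed and 5 (83.3%) were above 2-fold, 0 below, with a median of 2.40. After the division 4 were above and 1 below 0.5-fold. The matrix glycoprotein gene *Tnc* had 37.7 and 0.86 RPKM (43.9, 37.6 to 51.2), the basement membrane proteoglycan gene *Agrn* 32.7 and 13.5 (2.43), and *Srgn*, a proteoglycan of leukocyte granules, 15.7 and 0.39 (40.3, 22.1 to 86.4).

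The term proteinaceous extracellular matrix of the deposited annotation, chosen after values were seen, gave a wider frame of 202 rows, 78 of them past the minimum. Of these 42 (53.8%) were above 2-fold and 2 (2.56%) below 0.5-fold, against 28.2% and 3.75% of all rows past the minimum. The median log2 ratio was 1.30, against 0.50. The 2 below were *Dcn* and *Egfl6* (0.92 and 3.07 RPKM, ratio 0.30, 0.225 to 0.391). Elastin (*Eln*), whose ratio of 0.0251 was lower than that of *Dcn*, was not among the rows of this term. Within the term, *Dcn* had the lowest ratio of the 78 and the largest excess in Epi, 102 RPKM. Because *Dcn* was chosen for this difference, its place describes the choice and is not a finding. After division by the median ratio 38 were above and 8 below, against 18.9% and 6.94% of all rows past the minimum. By Epi RPKM *Dcn* was in place 5 and by CvP RPKM in place 18.

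Fibroblast markers beside the 9 genes were mixed, and 18 of 27 were under 1 RPKM in both libraries. Of 28 listed, 27 had a row and 9 passed the minimum. Of these 9, 5 (55.6%) were above 2-fold and 0 below 0.5-fold, against 28.2% and 3.75% of all rows past the minimum. Their median log2 ratio was 0.97. After division by the median ratio 2 were above and 1 below, against 18.9% and 6.94% of all rows past the minimum. The most abundant were *Gsn*, an actin-severing protein of many cell types, at 210.35 and 172.49 RPKM (1.22, or 0.929 relative to the median ratio), *Ly6a* at 99.3 and 41.55 (2.39), and *Pdpn* at 29.1 and 2.09 (13.9, 11.4 to 17.2). In the CvP 4 and in Epi 2 of the 27 were at 0. Across the 27, 16 were higher in CvP, 10 in Epi and 1 was equal. Over all 18498 rows, 13880 were higher in CvP. Other markers of the list are named after their values were seen. *Sparc*, a collagen-binding matrix protein, had 2.54 and 4.54 RPKM (0.559, 0.461 to 0.681), the intermediate filament gene *Vim* 3.99 and 2.79 (1.43) and the procollagen enhancer gene *Pcolce* 1.06 and 0.30 (3.53). Dermatopontin (*Dpt*) had 0 and 0.33 RPKM, *Postn* 0.03 and 0.17, and *Thy1* 0.22 and 0.20. On the CvP side, *Fn1* had 0.89 and 0.24 RPKM (3.71, 2.74 to 5.05) and *Fstl1* 0.40 and 0.13 (3.08, 1.63 to 6.31). *Twist2* had 0.46 and 0, about 17 and 0 reads. The list thus held genes on both sides, and *Dcn* at 128 RPKM in Epi stood beside *Pdgfra* at 0.07, *Lum* at 0.19 and *Col1a1* at 0.18.

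Markers of other cells moved with both directions. Over all rows past the minimum 78.1% were higher in CvP, 28.2% were above 2-fold and 3.75% below 0.5-fold. After division by the median ratio these last 2 shares were 18.9% and 6.94%. All 10 skeletal muscle markers were higher in Epi, like *Dcn*, with a summed RPKM of 5.48 in CvP and 59.3 in Epi and a median log2 ratio of -3.48 over the 8 past the minimum, all 8 below 0.5-fold. Among them *Acta1* had 0.86 and 12.9 RPKM, *Ckm* 0.67 and 10.6, *Tnnt3* 0.75 and 9.85, and the lowest ratio was that of *Myh4* at 0.24 and 5.21. All 10 immune markers were higher in CvP, like *Pdgfra* and *Fbn1*, with sums of 224 and 28.1, *Lyz2* at 131.64 and 0.43, *Cd74* at 60.6 and 19.9 and *Cd68* at 10.8 and 4.45. The 8 past the minimum were all above 2-fold, 7 of them after division by the median ratio, with a median of 1.99. All 10 taste cell markers were above 2-fold in CvP, with sums of 513 and 6.18, led by *Gnat3* (127.11 and 0.03), *Krt8* (112.64 and 0.36) and *Plcb2* (70.0 and 0.12), and a median of 7.28. Of the taste cell markers 2 were at 0 in Epi, and of the immune markers 1. The part of these cells in the results was not tested.

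The remaining marker lists were smaller in size or effect. The shares to set beside them are again 28.2% above 2-fold and 3.75% below 0.5-fold over all rows past the minimum. Over all 18498 rows, 13880 were higher in CvP and 3909 in Epi. Of 12 pericyte and smooth muscle markers 4 passed the minimum, 0 above 2-fold and 1 below 0.5-fold (2 after division by the median ratio), with a median of -0.13 and sums of 28.7 and 24.8. Across the 12, 4 were higher in CvP, 7 in Epi and 1 was equal. The list included *Notch3* (24.5 and 18.3 RPKM), *Tagln* (1.75 and 1.22) and *Des* (0.12 and 2.25), which is also a muscle marker. *Notch3* alone gave most of both sums. Of 10 endothelial markers with a row, 6 were higher in CvP and 4 in Epi, and 8 were under 1 RPKM in both libraries. The other 2 passed and were above 2-fold, *Vwf* (4.45 and 0.09) and *Tek* (2.49 and 0.07), with a median of 4.26 over these 2. The sums over the list were 8.03 and 1.23, and *Pecam1* had 0.28 and 0.12. Of 8 Schwann cell markers with a row all 8 were higher in CvP, 4 passed and 2 were above 2-fold and 0 below, with a median of 1.01 and sums of 60.9 and 39.2. Their leading genes were *Erbb3* (40.2 and 27.01), *Mbp* (10.3 and 8.94) and *Ngfr* (5.47 and 1.94), and *Erbb3* alone gave most of both sums. Of 9 cartilage and tendon markers with a row 2 passed, both above 2-fold, *Sox9* (3.46 and 0.74) and the SLRP gene *Chad*, with a median of 3.09 and sums of 7.11 and 1.2, and *Scx* had 0.81 and 0.38. The defining cartilage genes *Acan* and *Matn1* had 0.01 and 0 RPKM in CvP and were at 0 in Epi, both named after their values were seen.

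Basal epithelial markers were abundant in both libraries. All 8 passed the minimum, 2 (25.0%) above 2-fold and 1 (12.5%) below 0.5-fold, against 28.2% and 3.75% of all rows past it. The sums were 2623 and 3377 RPKM, and the median log2 ratio was 0.45. After division by the median ratio 0 were above 2-fold and 2 below 0.5-fold, so the balance of these calls turned to the Epi side. *Krt5* had 1506 and 1271 RPKM (ratio 1.19, or 0.903 relative to the median ratio), *Krt14* had 294.83 and 1140.2 (0.259, 0.254 to 0.263) and *Krt15* had 496.82 and 783.55 (0.634, 0.624 to 0.644). Of the 8, 6 were higher in CvP and 2, *Krt14* and *Krt15*, in Epi. Over all rows past the minimum 78.1% were higher in CvP. The keratin *Krt14* was thus on the Epi side together with *Dcn*, unlike most of its list, and its part in the result was not tested.

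**Figure D4:**
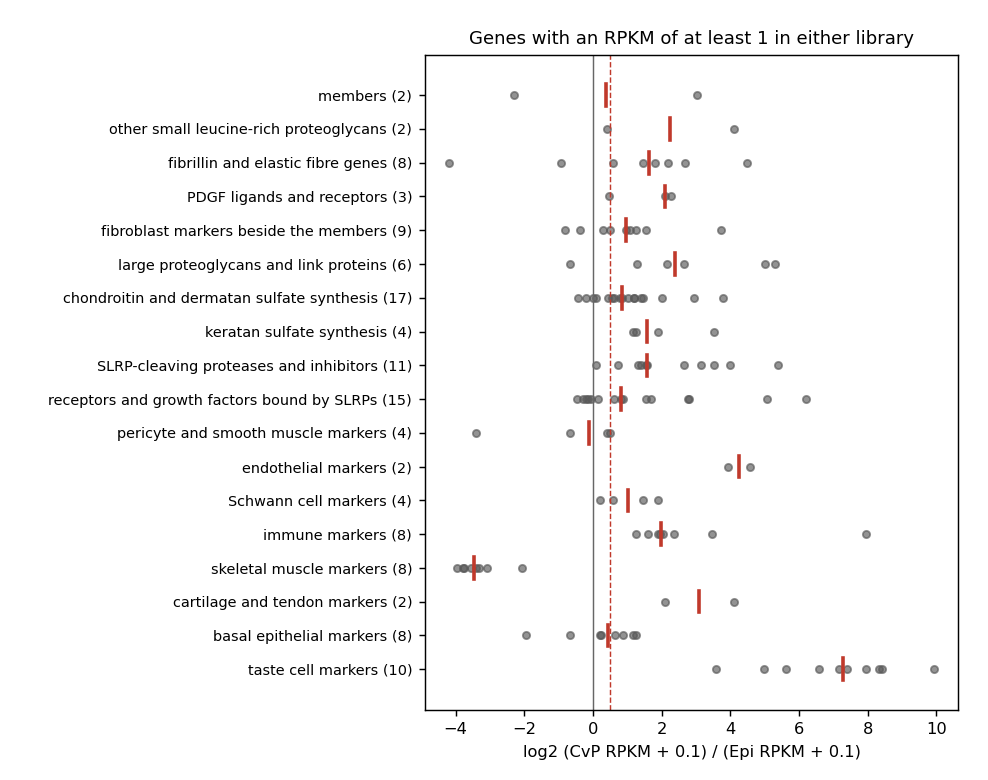
Points give the log2 CvP/Epi ratio, with 0.1 RPKM added to both values, of each listed gene with at least 1 RPKM in either library. Red bars give the median of each list (number of genes in brackets). The grey line marks 0 and the dashed line the median of 0.50 over all rows past the same minimum. Skeletal muscle markers lie at a median of -3.48 and taste cell markers at 7.28, and *Dcn* is the left point of the top line (members, the 9 genes described).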

How the data were processed

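Poly(A) RNA of CvP and Epi was made into 1 pooled library each and sequenced as reads of 75 bases. Per the submitters' processing notes, reads were mapped with Bowtie 0.12.7 to mm9, and the authors ran ERANGE to obtain the deposited RPKM per gene. The deposited column of CvP/Epi ratios was the authors' own comparison and was not used. The 9 genes, the 19 gene lists and the alternatives were chosen with earlier results of these data known.

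Depth was read from the RPKM of 1 read in 163 rows of 0.1 kb, and with it 96.4% (CvP) and 97.4% (Epi) of low values in rows of up to 0.5 kb were whole reads within 0.1 read. The reads of a gene were then taken over the shorter of its deposited length and the longest GENCODE M1 coding transcript, since the deposited length was the longer in 78.4% of rows past the minimum, and are approximate. Ratios were given 95% Clopper-Pearson intervals and levels Poisson intervals, and a gene of 0 reads was set to a floor of 3 reads per library. Lists were counted over genes with at least 1 RPKM in either library, with 0.1 RPKM added for medians, which understates the change of low genes. Genes named were the 9 genes, all other SLRPs with a row, the 3 highest and up to 3 lowest-ratio genes (below 0.5-fold) of each list, and the 3 genes nearest to *Dcn*, *Pdgfra* and *Fbn1*, of which 1 is not reported here. Of 8 muscle genes below 0.5-fold the lowest 3 are *Myh4*, *Des* and *Ckm*. Protein sequences were not compared here. The scripts were tested on simulated data. Python 3.11.15, numpy 2.4.6, pandas 2.3.3, scipy 1.17.1 and matplotlib 3.10.9 were used.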

Additional observations from a re-analysis of the deposited data

How the results depend on the processing

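No paired analysis was possible because there was only 1 library for CvP and 1 for Epi. Nor could any replicate be left out. Of 75 recomputed values 60 stayed within their interval or within 1.5 times their count, 15 moved, and 0 turned the direction of a called value. The CvP/Epi ratio of *Dcn* was 0.156 after division by the median ratio, 0.155 when the trimmed mean ratio was the divisor, and 0.246 with both libraries rescaled to the same sum. Adding 0.1 or 1 RPKM brought the ratio of *Pdgfra* to 8.24 or 2.15 and that of *Fbn1* to 9.64 or 1.94, as both are low genes. Without the minimum RPKM, 2 of the 9 genes were above 2-fold and 5 below 0.5-fold, and with a minimum of 5 there were 0 above. Of the 5 below, *Lum* and *Ogn* had 0 reads in CvP. *Fmod* and *Aspn* had about 1 read there, and the interval of *Aspn* held 1. With a minimum of 1 RPKM in CvP, 1 gene met the thresholds of the study's text. No share over all rows is given at these settings, so nothing is read from these counts. Depth limits *Lum*, *Ogn*, *Fmod*, *Aspn* and the Epi values of *Pdgfra* and *Fbn1*, which rest on 13 reads or fewer in a library.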
